A study of Mus musculus with 15 samples.

Results

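Of 15 mouse mammary tumors profiled on Affymetrix whole-transcript arrays, 3 had a low level of Sox10, and these Sox10-low tumors were compared with the 12 Sox10-high tumors. The sides were chosen by the measured value of Sox10, taken from the only transcript cluster annotated to Sox10 alone (17319134): below 9.5 on the log2 scale of the deposited table was low, and 9.5 or above was high, whatever the genotype. All tumors came from ErbB2KI mice, a knock-in model of ErbB2-driven mammary cancer, and were flash frozen at end burden. The 5 WT tumors were Ctnnb1 wt/wt, the 5 HET tumors Ctnnb1 fl/wt and the 5 HOM tumors Ctnnb1 fl/fl, with deletion of this beta-catenin gene aimed at the mammary epithelium. The Sox10-low tumors were HET 1, HET 2 and HET 4. The Sox10-high tumors were all 5 WT, all 5 HOM, HET 3 and HET 5. The sources used here do not give the strain, the age or the promoter that drove Cre. They also do not say that each tumor had its own mouse, and every p-value below therefore reflects tumor-to-tumor spread, whatever its source.

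Sox10 is a SoxE transcription factor, best known for neural crest, Schwann cell and melanocyte development. In the mammary gland it marks stem and progenitor cells, among them luminal progenitors, the Kit-positive, hormone receptor-poor cells of the inner epithelial layer. Elf5 directs such progenitors toward milk-secreting alveolar cells. The outer, basal layer holds contractile myoepithelial cells, and tumors of the gland also carry fibroblasts, vessels and leukocytes, whose RNA is part of every value below.

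Sox10 was 6.92 in HET 1, 8.14 in HET 2 and 7.25 in HET 4. In the Sox10-high tumors it had its lowest value at 10.47 (HOM 2), its median at 10.66 and its highest at 11.73 (WT 4). No tumor lay in the 2.33 log2 units between HET 2 and HOM 2, so thresholds of 9 and 10 gave the same sides. On its own array, Sox10 ranked above 66.8%, 78.6% and 70.2% of all transcript clusters in HET 1, HET 2 and HET 4, and above 94.5% to 98.5% of them in the Sox10-high tumors. Sox10 was thus not near the bottom of the array in the low tumors. The means were 7.44 ± 0.63 (SD, n = 3) and 10.80 ± 0.33 (SD, n = 12). These values chose the sides and carry no test. In whole tumors, fewer cells of a type and less RNA per cell cannot be told apart.

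Low Sox10 was found in 0 of 5 WT, 3 of 5 HET and 0 of 5 HOM tumors. With 3 low tumors and 5 tumors per genotype, no split could be more uneven than this. The two-sided Fisher-Freeman-Halton exact test gave p = 0.0659, the smallest value it can reach here. It could therefore not pass the threshold of 0.05, and nothing is read from it. Since every Sox10-low tumor was HET, low Sox10 and the HET genotype are nested. For each counted gene named here whose difference shrank by over 1.5 times against HET 3 and HET 5 alone, the value within HET is given too.

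Some tumors stood apart in ways that touch the comparison. The median correlation over genes was 0.898 among the 3 pairs of low tumors, 0.931 among the 66 pairs of high tumors and 0.868 between the sides. HET 2 was closest to a Sox10-high tumor, HOM 2 (r = 0.916), and HET 4 to another, HOM 5 (r = 0.918), whereas HET 1 was closest to HET 4 (r = 0.898). HET 3 carried skeletal muscle genes (list mean 11.02, against at most 7.08 in the other tumors). Ctnnb1 went against the label in WT 5, at 11.22 against 11.71 to 12.10 in the other WT tumors, and in HOM 5, at 12.01 against 11.15 to 11.58 in the other HOM tumors. Both lie on the high side. Ctnnb1 itself differed by -0.06 between the sides (11.56 ± 0.15, SD, n = 3 low, against 11.62 ± 0.37, SD, n = 12 high).

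A gene was counted when the low and high tumors did not overlap and their means differed by at least 1 log2 unit, that is 2-fold. Of 14242 genes other than Sox10, 256 were counted as higher in Sox10-low tumors (1.80%) and 233 as lower (1.64%), or 489 in all (3.43%). Without a minimum difference, 453 were higher (3.18%) and 735 lower (5.16%) with no overlap, 1188 in all (8.34%). Because the sides were cut on the same arrays, these shares are the background for the counts of list members below, and nothing is read from them. The median difference over all genes was -0.06, and 58.0% of genes had a lower mean in Sox10-low tumors. Of the counted genes, 58 were at least 4-fold lower and 56 at least 4-fold higher. Higher genes reached 34.5-fold (Cxcl3) and lower genes 9.22-fold (Atp6v1c2). HOM 5 was the high tumor nearest to the low ones for 100 of the 256 higher and 83 of the 233 lower genes. Without WT 5 and HOM 5, 332 genes were higher and 285 lower, including 255 and 232 of those counted with them. The counts moved with the tumors on either side: without HET 1 they were 400 higher and 273 lower, without HET 2 624 and 401, without HOM 5 320 and 286, and against HET 3 and HET 5 alone 826 and 503. No overlap is easier to meet with fewer tumors, so these counts are not comparable in size with the 256 and 233. Of the 256 higher and 233 lower genes, 227 and 212 were still counted without HET 1, 243 and 222 without HET 2, and 237 and 184 within HET.

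**Figure D1:**
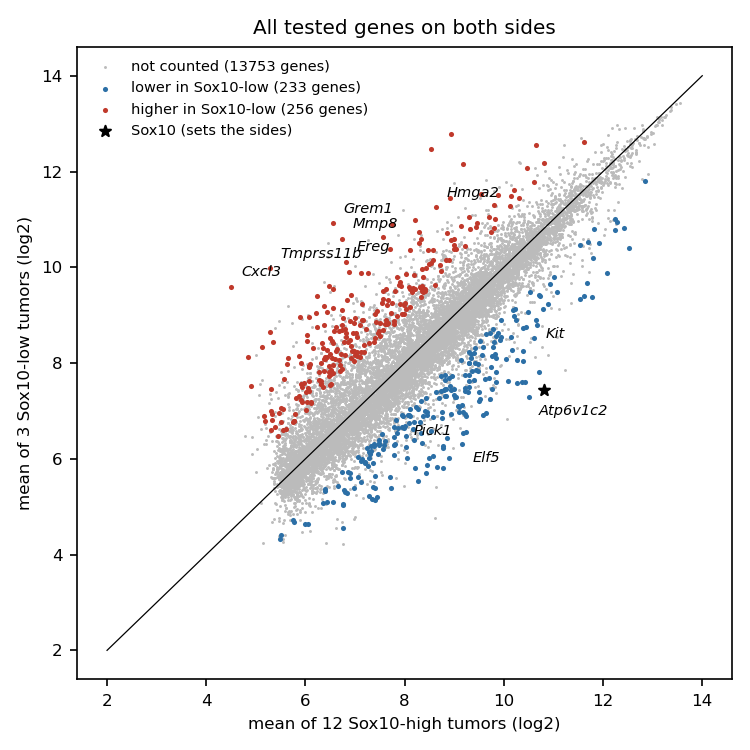
Mean log2 array value of each tested gene in the 12 Sox10-high tumors (horizontal) and the 3 Sox10-low tumors (vertical), with the line of equality. Coloured points are the 233 genes counted as lower and the 256 counted as higher in Sox10-low tumors, and the star is Sox10, which set the sides.

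Among luminal progenitor genes, Kit, Elf5, Tnfrsf19, Wfdc18 and Mfge8 were lower in all 3 Sox10-low tumors than in all 12 others. These are 5 of the 18 listed members, none was counted as higher, and 15 of 18 had a lower mean, with a median difference of -1.01. Tnfrsf19 encodes TROY, a receptor of the tumor necrosis factor family and a Wnt target. It was 6.53, 6.59 and 6.53 in HET 1, HET 2 and HET 4 and ran from 8.22 through a median of 9.13 to 10.27 in the high tumors, a difference of -2.68 (6.55 ± 0.04, SD, n = 3, against 9.23 ± 0.63, SD, n = 12). The low tumors were almost equal to each other here. Kit, the receptor for stem cell factor, was 8.51, 9.04 and 9.18 in the low tumors and 9.97 to 11.81 in the high ones (median 10.51), with means of 8.91 ± 0.35 (SD, n = 3) and 10.64 ± 0.54 (SD, n = 12), a difference of -1.73. Wfdc18, a secreted protein of alveolar cells (-2.11), and Mfge8, a milk fat globule protein (-1.04), completed the 5.

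Elf5 was 5.70, 7.43 and 5.82 in HET 1, HET 2 and HET 4, against 8.51 to 9.84 (median 9.24) in the high tumors. HET 2 had the highest of the 3 values and still lay below HOM 5, the lowest high tumor. The mean difference was -2.84 (6.32 ± 0.97, SD, n = 3, against 9.15 ± 0.36, SD, n = 12). Because Elf5 is a transcription factor among the genes with the largest differences, the 250 bases before its start are shown (RefSeq, GRCm38.p6, chr2:103411848-103412097, plus strand, the first of 2 listed starts). Capitals mark the only match to the SOX motif, ACAAAG or ACAATG searched on both strands, 207 bases before the start.
Elf5: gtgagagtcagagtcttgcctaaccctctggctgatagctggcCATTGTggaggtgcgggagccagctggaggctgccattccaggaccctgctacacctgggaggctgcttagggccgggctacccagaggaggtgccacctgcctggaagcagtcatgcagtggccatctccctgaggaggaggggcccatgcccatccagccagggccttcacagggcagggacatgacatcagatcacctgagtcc
Of 27025 genes in that table, taking the first start of each, 25.5% held such a match in 250 bases, and so did 17.6% of the 11130 tested genes with a window. Among counted genes it was 39 of 180 lower genes (21.7%) and 34 of 204 higher genes (16.7%). Promoters of Sox10 and Ereg are not shown here.

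Other luminal progenitor genes overlapped between the sides. Gabrp, a GABA receptor subunit typical of basal-like tumors, had the largest mean difference of the list, -3.38, but was 10.15 in HET 2, within the 9.85 to 12.19 of the high tumors. It was 5.75 in HET 1 and 7.68 in HET 4. Prom1 (-2.32), Mia (-2.14) and Ehf (-1.70) overlapped as well. Aldh1a3, which makes retinoic acid, was 6.08 in HET 1 but 10.50 and 10.42 in HET 2 and HET 4, above the highest Sox10-high value of 10.32. Itga2, an integrin, had a higher mean (1.06) with overlap, and within HET its difference was -0.10. The mean of the list was 7.99, 9.05 and 8.42 in the low tumors and had a median of 9.67 in the others, overlapping through WT 1 (8.84). Kit and Tnfrsf19 came as markers with the label of a lost luminal progenitor-like state. Like Elf5, Wfdc18 and Mfge8 they were lower in all 3 tumors, which counting requires of any gene. These 5 are therefore no separate support for the label, and the rest of the list was mixed. Without HET 1, Aldh1a3 (2.12), Itga2 (1.01), Cxcr4 (0.57), Slc34a2 (0.43) and Lif (0.04) had higher means in the low tumors. The other members still had lower ones.

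**Figure D2:**
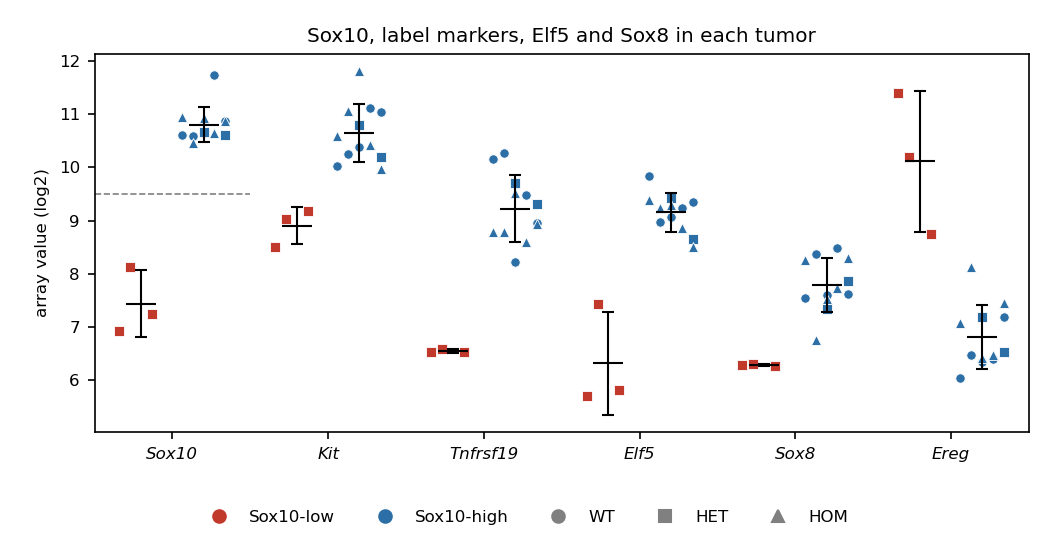
Log2 array values of Sox10, Kit, Tnfrsf19, Elf5, Sox8 and Ereg in each tumor, with bars for mean ± SD of the 3 Sox10-low and 12 Sox10-high tumors. The dashed line is the threshold of 9.5, which applies to Sox10 only. Kit, Tnfrsf19, Elf5 and Sox8 were lower and Ereg higher in every Sox10-low tumor.

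Within the Sox10-high side, whose spread did not set the sides, Sox10 did not track these markers measurably. Over 12 tumors the correlation with Sox10 was r = 0.375 for Kit (permutation p = 0.217, adjusted over the 3 genes 0.652; rho = 0.385, p = 0.218, adjusted 0.653). For Tnfrsf19 it was r = 0.0410 (permutation p = 0.903, adjusted 0.903; rho = -0.140, p = 0.668, adjusted 0.885). For Ereg it was r = -0.194 (permutation p = 0.549, adjusted 0.824; rho = -0.0490, p = 0.885, adjusted 0.885). Leaving out WT 4 and HOM 1, the 2 tumors farthest from the Sox10 median, gave 0.339, -0.0648 and -0.0733. The Sox10-high tumors span little Sox10, and all tests are two-sided.

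Apart from Elf5 and Tnfrsf19, the 15 lower genes with the largest differences had varied roles. Atp6v1c2, a subunit of the proton-pumping vacuolar ATPase, was 7.38, 7.61 and 6.91 in the low tumors against 9.59 to 11.48 (median 10.36). Slc30a2, a zinc exporter used in milk secretion, Slc44a3, a choline transporter-like protein, and Ttpa, the vitamin E transfer protein, differed by -2.57, -2.81 and -2.83. Acox2, a peroxisomal oxidase, differed by -2.74, and Ano9, of the anoctamin membrane proteins, by -2.73. Extl1 (-2.95), Emid1 (-2.90), Clmn (-2.89), Syne4 (-2.70), Smim22 (-2.66) and the long noncoding RNA Cerox1 (-2.55) completed the list with Elf5, Tnfrsf19 and Pgap3. Of these 15, Slc44a3 came closest to overlap, with 9.37 in HET 2 against 9.54 in HOM 5.

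Pgap3, and with it Stard3, lies next to Erbb2. Pgap3 was 7.07, 7.94 and 7.78 in the low tumors but spread from 8.19 to 12.57 in the high ones, and against HET 3 and HET 5 alone the difference shrank from -2.77 to -0.78. Stard3 likewise went from -2.20 to -0.59. Erbb2, the driving oncogene, was 12.92, 12.78 and 12.39 in the low tumors, inside the range of 9.63 to 12.89 on the high side except for HET 1. Its mean differed by 1.14 over all tumors and by -0.01 against the 2 Sox10-high HET tumors. Low Sox10 thus did not go with low Erbb2.

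**Figure D3:**
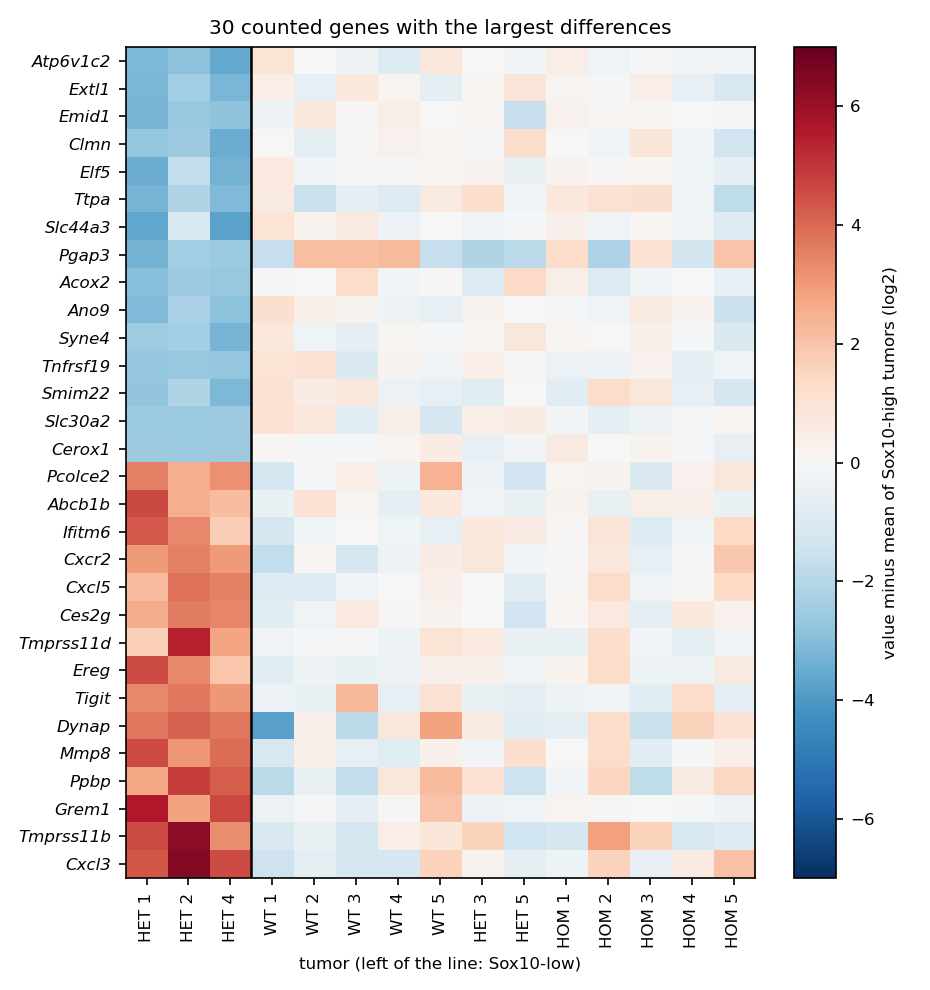
The 15 lower and 15 higher counted genes with the largest mean differences, 1 row per gene and 1 column per tumor. Colour gives the log2 value minus the mean of the 12 Sox10-high tumors, and the black line separates HET 1, HET 2 and HET 4 from them. Pgap3 varies widely among Sox10-high tumors, and Cxcl3, Tmprss11b and Tmprss11d are highest in HET 2.

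Other Sox genes did not follow Sox10 alike. Sox8, a close SoxE relative, was 6.30, 6.31 and 6.27 in the low tumors and 6.76 to 8.49 (median 7.68) in the high ones, with means of 6.29 ± 0.02 (SD, n = 3) and 7.79 ± 0.50 (SD, n = 12). Sox9, the third SoxE gene and a factor of mammary progenitors, was 11.17, 11.73 and 10.86, within the 7.51 to 11.83 of the high tumors. Sox4 (-0.74) and Sox6 (-0.70) were lower without overlap but under the 2-fold minimum. Of 11 tested members of the Sox list, 1 was counted as lower and 0 as higher.

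Genes that Sox10 controls in glia and pigment cells had 0 of 16 tested members counted, with a median difference of -0.26 that was -0.08 without HET 1 and -0.16 within HET. Of the 16, 2 were lower without overlap but under the 2-fold minimum, where 5.16% of all genes were lower without overlap. Lower means were seen for 11 of 16, against 58.0% of all genes. Mia (-2.14), Erbb3 (-2.04) and S100b (-1.90, and -0.45 within HET) had lower means with overlap. Cdh19, a cadherin of Schwann cells, was 4.07, 4.87 and 3.81 in the low tumors, as low as in HET 3 (4.41) and HET 5 (3.74), so its difference of -2.16 became 0.17 within HET. Schwann cell and nerve genes had a median difference of -0.08 (0 of 13 counted). Their list means, 6.64 to 7.02 on the low side and 6.23 to 7.47 on the high side, overlapped throughout. Of 8 melanocyte genes only Mitf, Pmel and Mlana passed the filter on dim genes, with 0 counted, while Dct, Tyr, Tyrp1, Oca2 and Slc45a2 stayed below it. Next to Sox10 on chromosome 15, 17 of the 20 nearest protein-coding genes were tested. Pick1, which directly neighbours Sox10, differed by -1.08 without overlap, and the median over the 17 was -0.05.

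Luminal epithelial genes had lower means in Sox10-low tumors for 23 of 23 members, with a median of -1.29, but only Cldn3 was counted. Cldn3, a tight junction claudin, was 8.27, 9.92 and 9.83 against 10.65 to 12.02 (median 11.64). The size rested on HET 1: without it the median was -0.62, and without HET 2 it was -2.02. The uniform direction rested on HET 1 too. Without it, Elf3 (0.30), Cldn4 (0.05) and Ovol1 (0.03) had higher means in the low tumors, and the other members still had lower ones. Epcam, the general epithelial adhesion protein, was 9.31 in HET 1, 11.74 in HET 2 and 11.38 in HET 4, against 11.59 to 12.31, and Cdh1, which encodes E-cadherin, was 8.38, 11.67 and 11.41 against 11.23 to 12.16. Krt8 was 12.04, 11.64 and 11.96 against 11.77 to 12.60 (-0.35). Other luminal keratins were low in HET 1: Krt7 was 4.86, 7.94 and 7.77 in the low tumors against 7.04 to 8.57, and Krt19 was 6.81, 10.13 and 8.37 against 6.43 to 12.04. Krt18 was 11.08, 11.13 and 11.37 against 11.79 to 12.48 (-0.91), without overlap. Among tight junction genes Cldn3 and Marveld3 (-2.02) were counted of 16 tested, and the median of -1.12 became -0.52 without HET 1 and -1.70 without HET 2.

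Basal, squamous and mesenchymal genes separated the 3 low tumors from each other. Krt14, the basal keratin, was 7.16 in HET 1, below all other tumors, and 13.43 and 12.77 in HET 2 and HET 4, with a range of 8.79 to 12.81 on the high side. Of 17 tested basal and myoepithelial genes 0 were counted. Their median of 0.46 was 1.25 without HET 1 and -0.33 without HET 4. Krt6a, a keratin of stressed and squamous epithelium, was 4.31, 12.62 and 12.01, and the cornified envelope gene Sprr2d was 3.70, 12.51 and 9.98 against 4.49 to 7.73. The mean of the squamous list was 6.07 in HET 1, the lowest of all 15 tumors, and 10.95 in HET 2, the highest, with 0 of 19 counted and a median of 0.68 that was 2.73 without HET 1 and -0.34 without HET 2.

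Mesenchymal genes had higher means for 16 of 16 members (median 1.36), and Tgfbi, an extracellular matrix protein induced by TGF-beta, was counted (12.14, 12.18 and 12.22 against 8.63 to 11.60, median 10.92). Their list means were 10.44 in HET 1 and 10.47 in HET 4, above the 7.20 to 9.88 of the high tumors, and 9.02 in HET 2, inside that range. Prrx1 was 11.53 in HET 1, 8.50 in HET 2 and 10.95 in HET 4 against 6.80 to 10.03. Fibroblast and collagen genes had higher means for 17 of 17 (0 counted, median 1.26), with list means of 9.90, 9.17 and 11.43 against 6.90 to 10.24. Without HET 4 the fibroblast median was 0.57 and the mesenchymal one 0.91. The part of stromal content in the mesenchymal values was not tested.

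**Figure D4:**
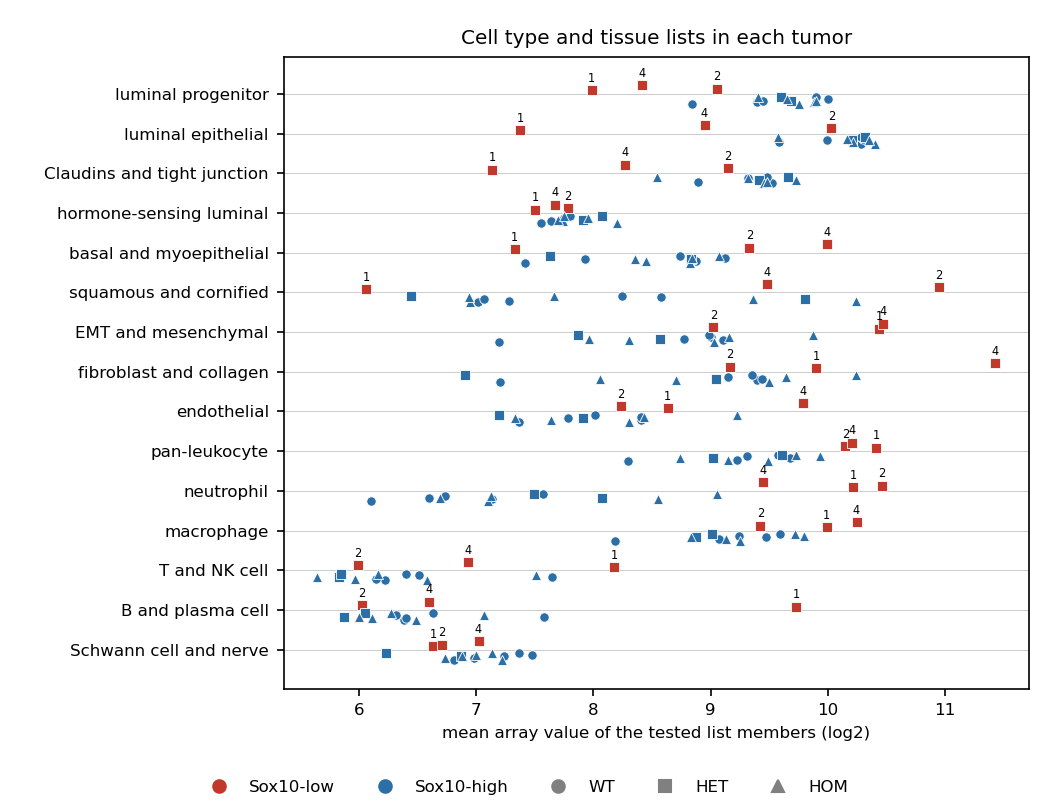
Mean log2 array value of the tested members of 15 gene lists in each tumor. Numbers mark the HET replicate of the 3 Sox10-low tumors. Neutrophil and pan-leukocyte means of the Sox10-low tumors lie above all others, and the squamous list puts HET 1 lowest and HET 2 highest.

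Chemokines that attract neutrophils and several neutrophil genes were higher in Sox10-low tumors. Cxcl3, which had the largest difference of the counted genes, was 8.84, 10.90 and 9.06 in HET 1, HET 2 and HET 4 and 3.06 to 6.55 in the high tumors, a difference of 5.11 (9.60 ± 1.13, SD, n = 3, against 4.49 ± 1.22, SD, n = 12). Ppbp was 11.25, 13.40 and 12.78 against 6.66 to 10.73 (3.94), and Cxcl5 was 8.38, 10.03 and 9.77 against 5.35 to 7.62 (3.15). Cxcl2 differed by 2.62, from 9.83, 9.86 and 9.96 to a high side of 6.10 to 9.65. Their receptor Cxcr2, carried by neutrophils, was 10.70, 11.26 and 10.72 against 6.04 to 9.61. Of 8 tested genes in a list of Cxcr2, its ligands and related genes, these 5 were counted. The list was drawn up after its values were seen. Cxcl1 (0.56), Pf4 (2.31) and Cxcr1 (1.01) had higher means with overlap.

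Of 16 neutrophil genes, 6 were counted as higher, and 16 of 16 had higher means (median 2.65). Mmp8, the neutrophil collagenase, was 11.31, 9.84 and 10.64 against 5.65 to 8.04 (10.60 ± 0.73, SD, n = 3, against 6.75 ± 0.76, SD, n = 12). Mmp9 (2.98), Clec4d (2.81), Il1r2 (2.77) and Clec4e (2.67) were the others with Cxcr2. Ly6g, the defining mouse neutrophil surface protein, was 10.05 in HET 1 and 8.54 in HET 2 but 6.74 in HET 4, below the highest Sox10-high value of 6.86. The mean of the list was 10.22, 10.46 and 9.45 in the low tumors and 6.10 to 9.05 in the others, so the sides did not overlap. Among Sox10-high tumors HOM 5 was the highest and WT 1 the lowest. The part of neutrophil content in the other higher genes was not tested.

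Of the remaining leukocyte lists, pan-leukocyte genes had 3 of 12 counted as higher (Ptprc 1.56, Cd53 1.41, and Rac2 with at least 11.21 against at most 10.88), with list means of 10.15 to 10.41 against 8.30 to 9.93. Macrophage genes had 1 of 17 counted, the integrin Itgam (1.88), which neutrophils also carry, and 16 of 17 had higher means (median 0.55, and 0.24 without HET 4). Their list means were 9.99 in HET 1 and 10.24 in HET 4, above the 8.18 to 9.79 of the high tumors, and 9.42 in HET 2, inside that range. Mrc1, the mannose receptor, differed by 2.09 and Arg1, which encodes arginase, by 1.74, both with overlap. Within HET they differed by 3.15 and 1.82. C1qa (0.23) and Adgre1 (0.55) overlapped over all tumors. T and NK cell and B and plasma cell genes had 0 counted of 11 and 10. The mean of the T and NK cell list was 8.18 in HET 1, 5.99 in HET 2 and 6.93 in HET 4, against 5.65 to 7.65 in the high tumors. That of the B and plasma cell list was 9.73 in HET 1 and 6.02 in HET 2, with HET 4 between them, against 5.88 to 7.58, so HET 1 had the highest mean of all tumors in both lists. Without HET 1 the T cell median went from 0.61 to 0.03 and the B cell median from 1.05 to -0.14. Tigit, an inhibitory receptor of T and NK cells, nevertheless was 8.64, 8.99 and 8.30 in the low tumors and at most 7.58 in the high ones, a difference of 3.36, and was thus highest in the low tumor with the lowest T cell mean.

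The chemokine genes and Ereg share a stretch of chromosome 5. In RefSeq order it runs Cxcl5, Ppbp, Pf4, Cxcl3, Cxcl15, Cxcl1, Cxcl2, Mthfd2l, Epgn, Ereg, Areg and Btc. Cxcl5, Ppbp, Cxcl3, Cxcl2, Mthfd2l (0.81) and Ereg did not overlap between the sides, while Cxcl1, Btc (0.03), Pf4 and Epgn (1.42) did, so the run was not uniform. Cxcl15 was below the filter and Areg has no cluster of its own here. The 100 bases before the start of 4 of these genes are shown (RefSeq, GRCm38.p6, plus strand) because Cxcl3 and Cxcl2 were higher and their close relative Cxcl1 was not counted. Capitals mark matches to the NF-kB consensus, searched on both strands, where each marked stretch is an overlapping pair of matches. The stretches are at chr5:90768418-90768517 for Ppbp, chr5:90786001-90786100 for Cxcl3, chr5:90891145-90891244 for Cxcl1 and chr5:90903799-90903898 for Cxcl2.
Ppbp: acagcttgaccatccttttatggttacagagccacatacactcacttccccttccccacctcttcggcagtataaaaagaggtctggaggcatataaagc
Cxcl3: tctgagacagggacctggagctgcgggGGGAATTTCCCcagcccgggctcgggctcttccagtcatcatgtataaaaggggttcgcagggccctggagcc
Cxcl1: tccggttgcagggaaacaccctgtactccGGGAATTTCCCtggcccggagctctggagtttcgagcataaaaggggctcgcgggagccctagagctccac
Cxcl2: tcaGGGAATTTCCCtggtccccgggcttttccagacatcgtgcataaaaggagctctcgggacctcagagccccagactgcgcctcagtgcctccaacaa
The match began 73, 71 and 97 bases before the start of Cxcl3, Cxcl1 and Cxcl2, so Cxcl1 held it as well. Ppbp had none in this window. In 250 bases before the start, 7.01% of all windows held a match, 8.77% of tested genes, 26 of 204 counted higher genes (12.7%) and 15 of 180 counted lower genes (8.33%). A match is a description of letters, not of binding.

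**Figure D5:**
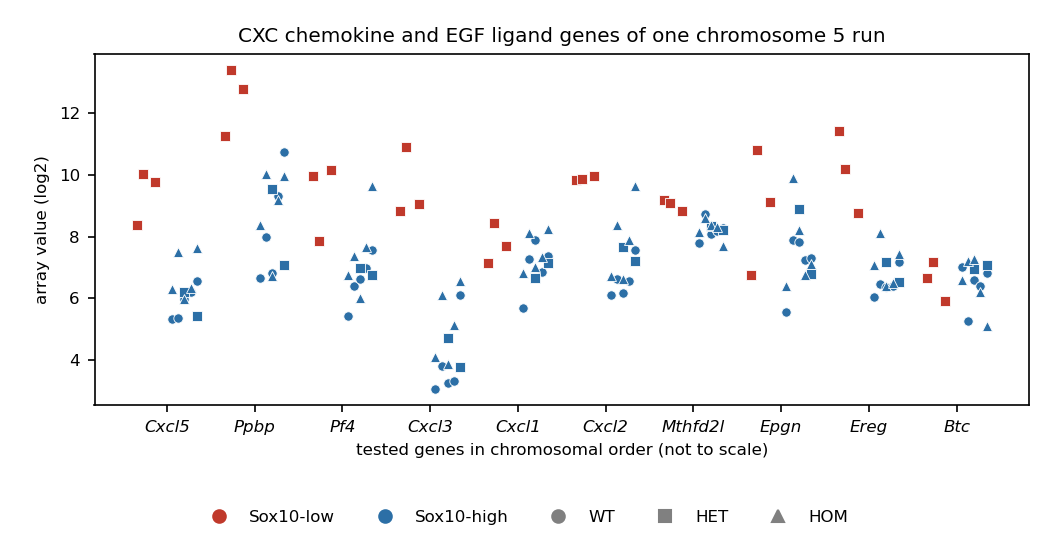
Log2 array values in each tumor for 10 tested genes of the chromosome 5 run, in their order and not to scale. Cxcl5, Ppbp, Cxcl3, Cxcl2, Mthfd2l and Ereg are higher in all 3 Sox10-low tumors, whereas Cxcl1 and Btc are mixed.

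Ereg, which encodes epiregulin, a ligand of EGFR and ErbB4, was 11.40, 10.19 and 8.76 in HET 1, HET 2 and HET 4 and 6.04 to 8.12 (median 6.51) in the high tumors, a difference of 3.31 (10.12 ± 1.32, SD, n = 3, against 6.81 ± 0.60, SD, n = 12). With the mean of all its clusters the difference was 2.16. It was the only counted gene among 11 tested ErbB receptors and ligands. Erbb3, the partner of ErbB2 in heterodimers, was 7.19, 9.66 and 8.70 against 9.42 to 11.32 (-2.04), with only HET 2 inside the high range. Nrg1, its neuregulin ligand, was 8.59, 11.60 and 11.16 against 5.15 to 9.59 (2.14), with only HET 1 inside. In the list of EGF and MAPK feedback genes, Etv5, an ETS factor, was lower (-1.60). Hmga2, a chromatin protein of embryonic and invasive cells rather than a feedback regulator, was in the list too. It was higher (11.69, 11.13 and 10.92 against 7.59 to 9.77, 2.62). The other 14 of the 16 tested were not counted, among them Dusp6 (-0.07) and Spry2 (-0.12).

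The other strongly higher genes had varied roles. Grem1, a secreted antagonist of BMP, was 12.15, 9.36 and 11.24 against 5.89 to 8.58 (median 6.46), a difference of 4.36. Tmprss11b and Tmprss11d, serine proteases of squamous epithelia that lie close together on chromosome 5, were 9.82, 11.55 and 8.56 against 3.86 to 8.16 (4.70) and 6.50, 10.26 and 7.61 against 4.21 to 6.06 (3.29). Both were highest in HET 2, like the squamous genes. As counted genes they lay by definition above the high side in HET 1 too, where the squamous genes were lowest. Tmprss11e, the other tested member of the family, had a higher mean (3.02) with overlap. Without HET 1 it differed by 4.52, without overlap. Dynap was 12.65, 13.08 and 12.64 and, among the high tumors, ranged widely from 5.15 to 11.76. Ces2g, a carboxylesterase (3.21), Ifitm6, an interferon-induced membrane protein of myeloid cells (3.12), Abcb1b, a drug efflux pump (3.10), and Pcolce2, a procollagen processing enhancer (3.08), completed the 15.

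Wnt targets and feedback genes had 3 of 21 counted, all lower: Tnfrsf19, Rnf43 (-1.89) and Lgr4 (-1.30, and -0.84 within HET). Rnf43 is a ubiquitin ligase that removes Wnt receptors and Lgr4 an R-spondin receptor. Axin2, the usual readout of canonical Wnt signaling, was 6.94, 6.54 and 6.87 against 6.48 to 10.78, inside the high range, as were Lef1 (-0.31) and Nkd1 (-0.37). Within HET, Lef1 (0.74) and Nkd1 (0.31) had the opposite direction, with higher means in the low tumors, and Axin2 differed by -0.41. Hormone-sensing luminal genes had Cited4 lower (-2.34) and Tbx3 higher (1.38) of 11 tested, and milk genes had Csn3, which encodes kappa-casein, lower (-1.60) of 12. Gata3, a luminal fate factor, was 7.88, 8.40 and 7.38 against 8.32 to 10.19 (-1.61) and overlapped by HET 2 only. Notch genes had 0 of 16 counted, with Notch2 higher by 0.74 without overlap.

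Genotype, a label that the sides did not use, was tested across all 14243 genes with limma. At an adjusted p below 0.05, 2 genes differed between HET and WT (0.0140%), 0 between HOM and WT and 0 between HOM and HET, with 1905, 242 and 1129 genes at an unadjusted p under 0.05. The 2 were Cdh19 (adjusted p = 0.00594) and A530020G20Rik (adjusted p = 0.0307), and neither was counted between the sides. The fit took in Sox10 and the genes counted between the sides. Of the counted genes, 181 lower and 154 higher ones were among the 1905, so the totals with HET are not independent of the sides. No genotype test is given for these genes singly, since 3 of the 5 HET tumors made up the low side. The HET against WT count was 48 without HET 3 and 18 without HET 5, the 2 Sox10-high HET tumors. Leaving out either raises the share of Sox10-low tumors in the HET group. The count was 1 without most other tumors, and the HOM against HET count was at most 3.

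With the Sox10 side as a further term in the limma fit, 0 genes passed in each of the 3 genotype contrasts, and genes at an unadjusted p under 0.05 numbered 573, 286 and 374. The contrasts with HET then rest on HET 3 and HET 5. Leaving out HET 3 gave 41 genes for HET against WT and 34 for HOM against HET, and leaving out HET 5 gave 49 and 48. Each of these sets 1 tumor against a group, assumed to vary like the other tumors, and the last 2 counts rest on HET 3, the tumor with skeletal muscle genes. Cdh19 differed by -3.63 (SE 0.55, adjusted p = 0.21), close to its -3.52 without the term. Ctnnb1 differed by -0.43 (SE 0.26, adjusted p = 0.998).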

How the data were processed

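RNA from 15 tumors, 5 per genotype, was profiled from 100 ng of total RNA (RNeasy extraction, Affymetrix WT Terminal Labeling Kit), per the labels' protocols. The authors deposited log2 expression values per transcript cluster. Per the submitters' processing notes, Affymetrix Expression Console and Transcriptome Analysis Console were used. Versions, as well as how background was corrected and values were normalized, were not given in the sources used here. Precision is limited by how many arrays there are.

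Of 41345 clusters, 23521 carried 1 gene symbol, 1814 several and 16010 none. Each of 22180 genes was represented by its brightest cluster with 1 symbol. Genes above the array median on at least 5 arrays were tested (14243). Since only 3 tumors were Sox10-low, a gene present in these alone fails this filter, and without it 287 genes were higher and 234 lower. The Sox10 sides received no test, because the same arrays set them. Genotype was tested with limma 3.58.1 (R 4.3.3; lmFit, eBayes, Benjamini-Hochberg) over all 15 tumors, with and without the side as a term, and correlations with 100000 permutations (scipy 1.17.1). The limma code was checked on simulated data. Alternatives were other filters, quantile normalization, median centring, all clusters of a gene, other thresholds and minimum differences, subsets of genotypes and leaving out each tumor.

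The members and gene lists were chosen with earlier results of these data known. Genes named were Sox10, Kit, Tnfrsf19 and Ereg, the 15 largest counted differences in each direction without unnamed gene models, up to 4 members per list with the largest differences (8 for 6 lists), and Ctnnb1, Erbb2 and Cdh19. Other genes named, the CXCR2 and Tmprss11 lists, both motifs and the fits without HET 1 and HET 3 or without WT 5 and HOM 5 were chosen after their values were seen. Promoter sequences and gene order are from RefSeq, GRCm38.p6. For the array annotation, no build is named in the labels or the table.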

Additional observations from a re-analysis of the deposited data

Results flagged for a closer look

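For 35 genes named by rule, the highest and lowest tumor of each genotype were compared with the other 4 by the gap to the nearest of them over the whole range. Of 105 groups, 9 held a tumor that stood apart, all of them WT or HOM. The limit used corresponds to about 1 in 20 groups of independent, normally spread values. Most of these genes were picked because low and high tumors did not overlap, which splits the HET groups, and all share the same tumors. The 9 are therefore not compared with that rate. Sox10 was 11.73 in WT 4, against 10.60 to 10.87 in the other WT tumors. Atp6v1c2 was 10.96 in HOM 1, against 10.24 to 10.38 in the other HOM tumors. Clmn was 8.24 in WT 2, against 8.93 to 9.19, and Acox2 was 9.56 in WT 3, against 8.10 to 8.32. WT 5 stood above the other WT tumors for 3 genes that were higher in Sox10-low tumors: Cxcl3 at 6.12 (3.06 to 3.81), Grem1 at 8.58 (5.89 to 6.61) and Tmprss11d at 5.77 (4.47 to 4.71). Tmprss11d was also high in HOM 2, at 6.06, against 4.21 to 4.65 in the other HOM tumors. Tigit was 6.55 in HOM 4, against 4.52 to 5.06.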

How the results depend on the processing

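Counts of genes between the sides, 256 higher and 233 lower, moved with the minimum difference and with the tumors that entered. HET tumors alone gave 826 and 503, a filter at the 75th percentile gave 114 higher, and leaving out HET 1 and HET 3 together gave 418 higher. A minimum difference of 2 gave 56 and 58, and no minimum gave 453 and 735. Leaving out each tumor in turn gave 249 to 624 higher and 230 to 401 lower. Because no overlap is easier to meet with fewer tumors, counts from fewer tumors are not comparable in size with the main ones. For genotype, HET against WT gave 0 genes with the stricter filter, 1 with repeated quantile normalization and 1 to 48 without single tumors; HOM against WT gave 0 to 0 and HOM against HET 0 to 3. Given the side, HET against WT gave 1 gene with no filter and 0 to 49 without single tumors, HOM against WT 0 to 0 and HOM against HET 0 to 48, where the highest counts rest on 1 Sox10-high HET tumor. The causes were not tested. The correlation of Tnfrsf19 with Sox10 in Sox10-high tumors went from 0.0410 to -0.0648 without WT 4 and HOM 1. For the 35 genes and 35 lists, 11 of 735 and 14 of 735 recomputed values moved by more than the spread between tumors. No paired analysis was possible because replicate numbers only follow accession order.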

Other observations

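Several gene lists not described above had 0 counted members. Interferon response genes had lower means in Sox10-low tumors for 13 of 14 tested members (median -0.92), but the high tumors spanned list means of 6.52 to 10.01 around the 7.05 to 7.53 of the low ones. Endothelial genes had higher means for 17 of 17 (median 0.96, and 0.51 without HET 4), with list means of 8.63, 8.24 and 9.79 in HET 1, HET 2 and HET 4 against 7.19 to 9.22. Cell cycle genes had a median of -0.19, which was 0.04 without HET 4, and glycolysis and hypoxia genes one of 0.09. Sterol and fatty acid synthesis genes had 1 of 13 counted, Srebf1, the lipogenic transcription factor, which was 8.41, 8.48 and 8.09 in the low tumors and 8.82 to 10.67 in the high ones (-1.26, and -0.71 within HET). Adipocyte (0.11) and stress response (-0.04) genes had 0 counted. Among receptor tyrosine kinases Kit alone was counted of 19 tested.

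Below the filter on dim genes, Tmprss11g ran from 4.02 to 12.48 in Sox10-low tumors (mean 8.40) and from 3.86 to 5.38 in the others (mean 4.40), so at least 1 low tumor was at the level of the high ones. Greb1, an estrogen-responsive gene, ran from 6.10 to 6.36 and from 4.97 to 5.60, without overlap.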
